A study of Mus musculus with 30 samples.

Results

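The clock activators of the mouse colon are 3 genes of the 46078 in the count table, Arntl (also named Bmal1), Clock and Npas2. They were chosen by name from what their proteins do, with earlier results of these data known. They were followed in 30 RNA-seq libraries of colon tissue from C57BL/6J mice, 6 biological replicates in each of 5 groups. CD F and CD M were females and males on a control diet, HFD F and HFD M were females and males on a high-fat diet, and these 4 groups were given vehicle. HFD+E2 M were males on the high-fat diet that were given 17β-estradiol (E2) at 0.5 mg per kg of body weight. All mice were 5 to 6 weeks old when obtained, were fed their diet for 13 weeks and received 9 intraperitoneal injections during the last 3 of these weeks, vehicle in the 4 control groups included. The females kept their ovaries, and no library of an E2-treated female was analysed here. The animals were killed at the same time of the day according to the study, the hour is not given in the sources used here, and each animal gives a single time point for genes that cycle over the day.

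ARNTL pairs with either CLOCK or NPAS2, a pair of related bHLH-PAS proteins, and the dimer binds E-box sequences and switches on the Period, Cryptochrome, Rev-erb and D-box factor genes. The Period and Cryptochrome proteins then block the dimer, while the Rev-erb repressors (Nr1d1 and Nr1d2) and the ROR activators compete for ROR elements in the Arntl promoter, so that in cycling tissues the RNA of Arntl peaks in antiphase to that of the Rev-erb, Period and D-box factor genes. The RNA of Clock is known to cycle weakly or not at all in many tissues, and Npas2 to cycle in phase with Arntl in several. The gut has such a clock in its epithelium, its muscle and its nerve cells.

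Arntl (ENSMUSG00000055116) spans chr7:113207465-113314122 on the plus strand of GRCm38, Clock (ENSMUSG00000029238) chr5:76209868-76304792 on the minus strand, and Npas2 (ENSMUSG00000026077) chr1:39193731-39363236 on the plus strand. The merged exons of GENCODE M21 number 22 in Arntl, 24 in Clock and 23 in Npas2 and cover 7523, 13727 and 4791 bases. The antisense gene Gm45355 shares 33 exon bases with Arntl and has no row in the count table, and the strand setting of the counting was not given in the sources used here. No other annotated gene shared exon bases with a member, but Gm3617, a processed pseudogene, lies within Npas2 on the same strand.

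The start regions of the members are shown because Rev-erb and ROR proteins act on Arntl through ROR elements there, and so that the 3 genes can be set side by side. The RefSeq promoter table of GRCm38.p6 (250 bases before to 50 after each start) matched all 3 genes, with 2 windows for Arntl, 3 for Clock and 1 for Npas2. Capitals mark matches, on either strand, to an E-box (CACGTG), a ROR element core (AGGTCA), a D-box (TTATGNAA), an estrogen response element (GGTCANNNTGACC), or a longer ROR element (AGTAGGTNA). The last of these was added after the Arntl sequence had been read, it overlaps the ROR core where its N is C, and the windows are given 5′ to 3′ on the strand of the gene.
Arntl, chr7:113207261-113207560, plus strand: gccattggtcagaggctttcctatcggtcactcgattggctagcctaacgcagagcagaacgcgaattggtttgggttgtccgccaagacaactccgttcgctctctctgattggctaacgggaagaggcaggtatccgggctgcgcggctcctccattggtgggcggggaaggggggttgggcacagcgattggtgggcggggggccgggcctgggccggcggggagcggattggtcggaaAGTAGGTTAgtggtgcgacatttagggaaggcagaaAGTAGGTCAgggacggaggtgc
Npas2, chr1:39194022-39194321, plus strand: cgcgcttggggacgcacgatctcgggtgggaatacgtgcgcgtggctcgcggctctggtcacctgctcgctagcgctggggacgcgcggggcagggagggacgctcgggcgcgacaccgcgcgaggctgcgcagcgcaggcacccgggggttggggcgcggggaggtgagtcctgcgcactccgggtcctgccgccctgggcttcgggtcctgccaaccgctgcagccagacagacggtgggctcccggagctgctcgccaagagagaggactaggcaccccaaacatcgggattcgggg
Clock, chr5:76304743-76305042, minus strand: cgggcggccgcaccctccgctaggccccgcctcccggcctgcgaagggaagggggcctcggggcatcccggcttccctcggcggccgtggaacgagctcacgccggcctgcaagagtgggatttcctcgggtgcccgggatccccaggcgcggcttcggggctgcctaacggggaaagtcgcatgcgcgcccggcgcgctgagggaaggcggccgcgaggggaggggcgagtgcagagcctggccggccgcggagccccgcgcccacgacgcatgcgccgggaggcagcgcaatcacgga

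The second Arntl window held 2 matches to the longer ROR element, AGTAGGTTA at chr7:113207503-113207511 and AGTAGGTCA at chr7:113207539-113207547, the latter with the ROR core inside it. Of all 32851 windows in the table, 0.591% held the longer element and 16.3% the core. The Npas2 window and the first 2 Clock windows held no match to any of the 5 motifs, and the third Clock window, chr5:76303453-76303752, held 1 ROR core on the opposite strand (TGACCT) at chr5:76303616-76303621. No window of the 3 genes held an E-box, a D-box or an estrogen response element, which 7.15%, 3.38% and 0.0700% of all windows held. These matches describe letters in short windows and say nothing of what binds there.

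The libraries held 8667177 to 17243712 counts. Markers of the colon and of its epithelium were high in every library, with summed levels of 1915 to 3832 TPM over 9 colon genes and 3983 to 6475 TPM over 10 epithelial genes. TPM is a level scaled for gene length and library size, and CPM is a count scaled for library size only. The samples were colon tissue and not sorted cells, so fewer cells of a type and less RNA per cell cannot be told apart in any result below. Squamous epithelium markers, which the colon lacks, reached a summed 1860 TPM in HFD F and 744 TPM in HFD M against at most 166 TPM in the other groups, and defining squamous genes were at 0 in CD F (5 of 20), CD M (2) and HFD+E2 M (7).

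Clock was the most abundant of the 3 genes in every group. Over the 30 libraries it ranged from 42.3 to 92.5 TPM with a median of 59.1 TPM and 2397 to 5252 counts a library, and only 2.23% of all genes had a higher mean. Arntl ranged from 3.85 to 30.7 TPM (median 10.8 TPM, 83 to 1036 counts), a 7.97-fold span. Npas2 ranged from 3.33 to 20.04 TPM (median 8.26 TPM, 74 to 700 counts), a 6.02-fold span, against 2.19-fold for Clock. Clock thus had the narrowest range, and Arntl and Npas2, one from each side of the dimer, the wider ones. Which of Arntl and Npas2 was the more abundant depended on the length used. Mean TPM was higher for Arntl in all 5 groups, from 7.42 against 5.75 TPM in HFD M to 22.9 against 13.7 TPM in CD F, whereas CPM per kilobase of merged exon was higher for Npas2 in all 5, from 2.83 against 2.16 in HFD M to 8.03 against 7.60 in CD F.

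**Figure D1:**
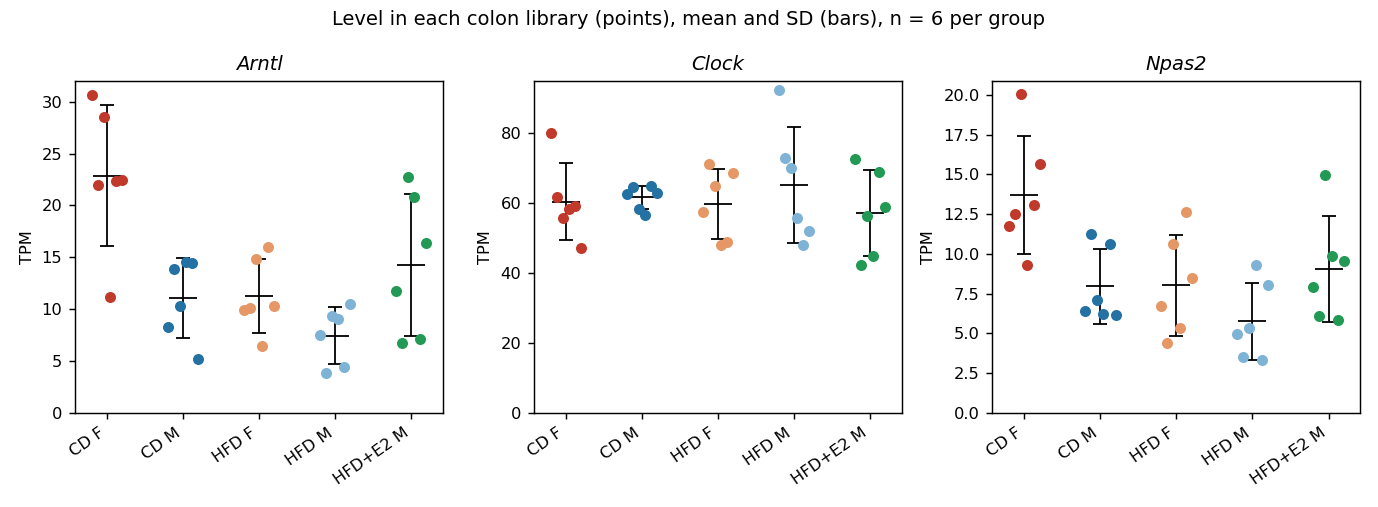
Level in TPM (y axis, linear, from 0) of Arntl, Clock and Npas2 in each of the 30 libraries (points) by group, with the group mean and SD (bars, n = 6 each). Arntl and Npas2 were highest in CD F and lowest in HFD M, and Clock lay between 42.3 and 92.5 TPM in all groups.

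Ordered by mean TPM, Arntl and Npas2 gave the same sequence of groups. By mean CPM, Arntl kept HFD F (26.5 CPM) above CD M (25.6 CPM), whereas for Npas2 CD M (22.1 CPM) lay above HFD F (21.2 CPM). Arntl fell from CD F (22.9 ± 6.78 TPM, SD, n = 6) through HFD+E2 M (14.3 ± 6.82), HFD F (11.3 ± 3.54) and CD M (11.1 ± 3.85) to HFD M (7.42 ± 2.73). Npas2 fell from CD F (13.7 ± 3.72 TPM, SD, n = 6) through HFD+E2 M (9.03 ± 3.34), HFD F (8.03 ± 3.18) and CD M (7.95 ± 2.34) to HFD M (5.75 ± 2.43). No neighbours in the TPM orders differed beyond their spread after adjustment. The exact permutation test of log2 CPM, two-sided and adjusted over the 12 neighbouring pairs of the 3 genes, gave an adjusted p of 0.0779 for Npas2 in CD F against HFD+E2 M, and 0.135 or more for the other neighbours of both genes. For Clock the order rested on the scale, since by TPM it ran from HFD M (65.2 ± 16.7 TPM, SD, n = 6) over CD M (61.7 ± 3.38), CD F (60.5 ± 10.9) and HFD F (59.9 ± 10.001) to HFD+E2 M (57.3 ± 12.3), while by CPM CD F was highest (336 ± 25.2 CPM) and HFD+E2 M lowest (286 ± 26.4 CPM), and no neighbours passed here either (lowest adjusted p, exact permutation test, 0.0779).

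Under CD, Arntl and Npas2 were higher in females, and Clock did not pass the test. In CD F, Arntl had a lowest value of 11.2, a median of 22.4 and a highest value of 30.7 TPM, and in CD M a lowest value of 5.19, a median of 12.1 and a highest value of 14.5 TPM. Of the 6 CD F libraries, 5 lay above every CD M library and replicate 4 lay among them. Npas2 ran from 9.28 over a median of 12.8 to 20.04 TPM in CD F and from 6.13 over 6.74 to 11.2 TPM in CD M, with 4 CD F libraries above all of CD M by log2 CPM. The 2 genes passed the adjusted threshold of 0.05 in edgeR's quasi-likelihood test (Arntl log2 fold change 1.16 ± 0.25, SE, adjusted p = 0.0254, and Npas2 0.80 ± 0.21, adjusted p = 0.0490), where 2.92% of the 14922 genes tested did. They also passed the threshold the study used (unadjusted p under 0.05 and a log2 fold change beyond 0.4 either way), as did 9.15% of genes. An exact permutation test of log2 CPM (smallest possible p 0.00216), adjusted over the 15 pairs of a member and a comparison, gave 0.0390 for both and 0.0541 for Clock. Clock was at a log2 fold change of 0.13 ± 0.07 (adjusted p = 0.424), with 5 CD F libraries above all of CD M by log2 CPM, and by mean TPM it was 0.980 times as high in CD F as in CD M, the other way round.

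The adjusted call of the sex difference under CD was close to the threshold. It was lost for Arntl without CD F replicate 1, 3, 5 or 6 or CD M replicate 3, where the edgeR adjusted p was 0.0650, 0.0532, 0.0569, 0.0536 and 0.0661. For Npas2 it was lost without any CD F replicate (0.0578 to 0.103) and without CD M replicate 1, 3, 4 or 6 (0.0642, 0.118, 0.110 and 0.0847), while both genes passed the study's threshold in all 12 such fits. All 12 smooth muscle markers were lower in CD F at the study's threshold and 8 of them by the adjusted p, with summed levels of 2648 to 4107 TPM in CD F and 4168 to 6911 TPM in CD M. With the smooth muscle score as a covariate the log2 fold changes were 1.75 ± 0.44 for Arntl (adjusted p = 0.0713) and 1.26 ± 0.34 for Npas2 (adjusted p = 0.0739). Both the changes and their SE were larger than without it. Since the summed levels did not overlap between the groups, sex and smooth muscle cannot be told apart by this fit. Other cell types also moved in this comparison. Of 8 fibroblast markers, 5 were lower in CD F at the study's threshold and 3 by the adjusted p (median log2 fold change -0.55), and of 12 B cell markers 6 were higher at the study's threshold and none by the adjusted p (median 1.34). With the B cell score as a covariate the log2 fold changes were 1.28 for Arntl (edgeR adjusted p = 0.232) and 0.91 for Npas2 (adjusted p = 0.279), and the part of fibroblasts was not tested.

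Under HFD the same direction was seen, at smaller size. Arntl lay between 6.43 and 15.96 TPM (median 10.2) in HFD F and between 3.85 and 10.46 TPM (median 8.26) in HFD M, so that the groups overlapped and 3 of 6 HFD F libraries were above all HFD M libraries by log2 CPM. Arntl had a log2 fold change of 0.73 ± 0.27 (edgeR adjusted p = 0.872) and passed the study's threshold, with 3.09% of the 15179 genes tested. It did not pass without HFD F replicate 5 (log2 fold change 0.55). By the adjusted p, 0.0988% of genes passed and no member did. Npas2 lay between 4.40 and 12.6 TPM (median 7.59) in HFD F and between 3.33 and 9.30 TPM (median 5.14) in HFD M, and had a log2 fold change of 0.66 ± 0.34 that did not pass (edgeR adjusted p = 0.872), but passed the study's threshold without HFD F replicate 2 (0.81) or HFD M replicate 4 (0.84), in DESeq2 (0.66), with all 30 libraries in one fit (0.66) and with the smooth muscle score as a covariate (0.80). Clock was at -0.02 ± 0.10.

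Whether the sex difference itself differed between diets was tested as an interaction. The interaction was -0.43 ± 0.40 on the log2 scale for Arntl (edgeR adjusted p = 0.833), -0.14 ± 0.42 for Npas2 (adjusted p = 0.951) and -0.16 ± 0.12 for Clock (adjusted p = 0.792). Of the 15800 genes, 0% passed by the adjusted p in edgeR, while 1066 had an unadjusted p under 0.05 and DESeq2 called 3. A difference between diets in the size of the sex effect was not detected for any of the 3 genes in this fit. With the smooth muscle score as a covariate the interaction was -0.92 for Arntl, which passed the study's threshold but not the adjusted one, and -0.74 for Npas2, which passed neither.

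In females, HFD went with lower activators. Arntl was at 6.43 to 15.96 TPM (median 10.2) in HFD F against 11.2 to 30.7 TPM (median 22.4) in CD F, and 4 HFD F libraries lay below all of CD F by log2 CPM. Its log2 fold change was -1.09 ± 0.25 (edgeR adjusted p = 0.410). Npas2 was at 4.40 to 12.6 TPM (median 7.59) against 9.28 to 20.04 TPM (median 12.8), with a log2 fold change of -0.84 ± 0.27 (edgeR adjusted p = 0.559). Both passed the study's threshold, with 3.67% of the 15061 genes tested, also when any 1 library was left out. No member passed by the adjusted p, at which 0.0199% of genes did. DESeq2 called Arntl (adjusted p = 0.00235) but not Npas2 (adjusted p = 0.0917). With the replicate number as a block, edgeR also called Arntl and not Npas2.

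Clock had its largest difference of the 5 comparisons in HFD F against CD F, and a small one. Its log2 fold change was -0.20 ± 0.08 (edgeR adjusted p = 0.721), under the fold the study required. On the TPM scale the group means were 59.9 and 60.5, a ratio of 0.990, so the decrease was seen in CPM only. The exact permutation test of log2 CPM, adjusted over the 15 pairs of a member and a comparison, gave 0.0390 for each of the 3 genes here. Squamous markers rose in HFD F (summed 98.1 to 1860 TPM against 88.7 to 161 TPM in CD F, 4 of the 5 that could be tested past the study's threshold), and with the squamous score as a covariate the log2 fold changes were -1.16 for Arntl, -1.09 for Npas2 and -0.11 for Clock.

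In males, HFD went with decreases that were about as large for Npas2 as for Arntl. Arntl was at 3.85 to 10.46 TPM (median 8.26) in HFD M against 5.19 to 14.5 TPM (median 12.1) in CD M, and Npas2 at 3.33 to 9.30 TPM (median 5.14) against 6.13 to 11.2 TPM (median 6.74). The ranges overlapped for both. The log2 fold changes were -0.66 ± 0.28 for Arntl (edgeR adjusted p = 0.823) and -0.71 ± 0.28 for Npas2 (edgeR adjusted p = 0.807). Both passed the study's threshold, with 2.90% of the 14991 genes tested, but by the adjusted p 0% of genes passed in edgeR, where 904 had an unadjusted p under 0.05, and DESeq2 called 26. Clock was at -0.05 ± 0.09, and its mean TPM was 1.06 times as high in HFD M as in CD M. The decreases in males lay close to the study's threshold. Arntl no longer passed the study's threshold without CD M replicate 2, 4 or 5 or HFD M replicate 1, 2 or 5, where the log2 fold change was between -0.64 and -0.53. Npas2 no longer passed without CD M replicate 2 or 5 or HFD M replicate 1, where it was -0.62, -0.50 and -0.64. With the smooth muscle score as a covariate the log2 fold changes were -0.38 for Arntl and -0.48 for Npas2, and neither passed. Of the 12 alternative settings, this one included, Arntl passed the study's threshold in 4 and Npas2 in 6. The exact permutation test, adjusted over the 15 pairs of a member and a comparison, gave 0.112 for Arntl and 0.0758 for Npas2.

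E2 given to males on HFD went with higher Arntl and Npas2 and with no detected difference in Clock. Arntl was at 6.74 to 22.8 TPM (median 14.1) in HFD+E2 M against 3.85 to 10.46 TPM (median 8.26) in HFD M. Of the 6 treated libraries, 4 lay above every HFD M library, with 16.4, 20.8 and 22.8 TPM in replicates 6, 4 and 3 and 11.8 TPM in replicate 1, while replicates 2 and 5 lay among the vehicle libraries at 6.74 and 7.14 TPM. The log2 fold change of Arntl was 1.14 ± 0.34 (edgeR adjusted p = 0.454). Npas2 was at 5.86 to 14.9 TPM (median 8.73) against 3.33 to 9.30 TPM (median 5.14), and its log2 fold change was 0.86 ± 0.29 (edgeR adjusted p = 0.455). The 2 libraries lowest in Arntl under E2, replicates 2 and 5, were also the lowest in Npas2, at 6.08 and 5.86 TPM. Clock was at -0.05 ± 0.11 (adjusted p = 0.879).

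Both activators passed the study's threshold under E2, with 5.87% of the 15010 genes tested, and did so without any 1 of the 12 libraries (log2 fold change 0.93 to 1.29 for Arntl and 0.65 to 1.04 for Npas2). By the adjusted p 0.00666% of genes passed and no member did. DESeq2 called Arntl (adjusted p = 0.0483) and not Npas2 (adjusted p = 0.185). With the replicate number as a block, edgeR called Arntl here too (adjusted p = 0.0178) and not Npas2. The exact permutation test gave 0.0649 for Arntl and 0.0690 for Npas2, adjusted over the 15 pairs of a member and a comparison. Compared with CD M, HFD+E2 M was at a log2 fold change of 0.48 ± 0.35 for Arntl (edgeR adjusted p = 0.667), 0.16 ± 0.29 for Npas2 (adjusted p = 0.884) and -0.09 ± 0.08 for Clock (adjusted p = 0.740). No member passed either threshold in that comparison, in which 0.212% of the 15109 genes passed by the adjusted p and 5.99% by the study's threshold. HFD M is shared by the sex, diet and E2 comparisons and lies in the low position in each, so these comparisons are not independent of each other.

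**Figure D2:**
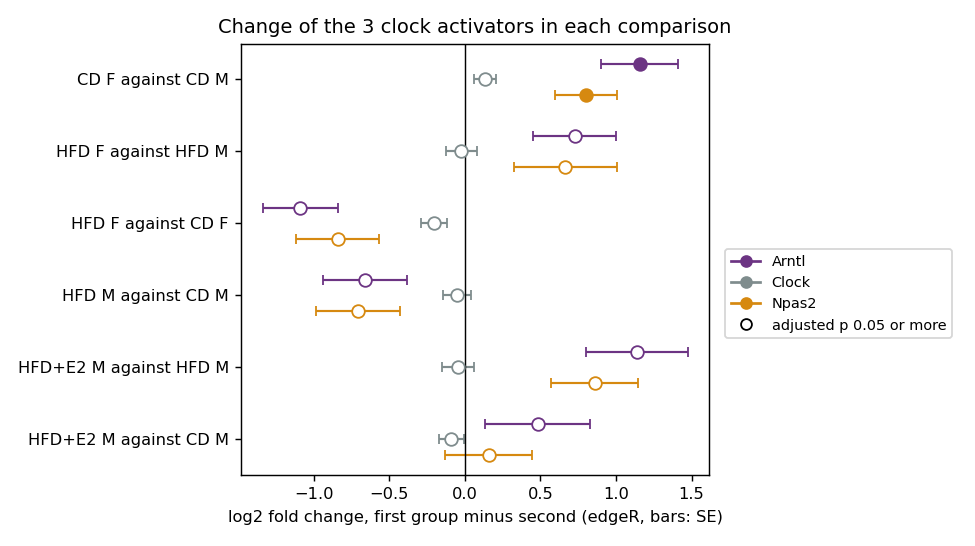
Log2 fold change (x axis, first group minus second) with its SE (bars) of the 3 activators in 6 comparisons (y axis), n = 6 a group. Filled points passed an adjusted p under 0.05, which were Arntl and Npas2 in CD F against CD M, and Clock lay between -0.20 and 0.13 throughout.

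Because CLOCK and NPAS2 are alternative partners of ARNTL, the ratio of their RNAs was followed in each library. On the geometric mean, Clock exceeded Npas2 by 4.48 times in CD F, 6.56 times in HFD+E2 M, 7.88 times in HFD F, 8.01 times in CD M and 11.9 times in HFD M, in TPM. With counts per kilobase of merged exon these were 3.07, 4.38, 5.25, 5.12 and 8.06 times. The log2 ratio of Npas2 to Clock was higher by 0.84 in CD F than in CD M and by 0.86 in HFD+E2 M than in HFD M, and was lower by the amounts -0.81 in HFD F against CD F and -0.57 in HFD M against CD M. Each group had a wide spread (SD of 0.35 to 0.76 on the log2 scale). None of the 5 comparisons passed the exact permutation test adjusted over the 5, with the lowest adjusted p at 0.0649 for the sex difference under CD and 0.0974 for both HFD F against CD F and HFD+E2 M against HFD M. Over the libraries left out in turn, the HFD F against CD F difference was largest without HFD F replicate 5, at -1.02 (exact permutation test, adjusted p = 0.0325). That library had the highest Npas2 of its group (12.6 TPM), so leaving it out widens the difference.

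**Figure D3:**
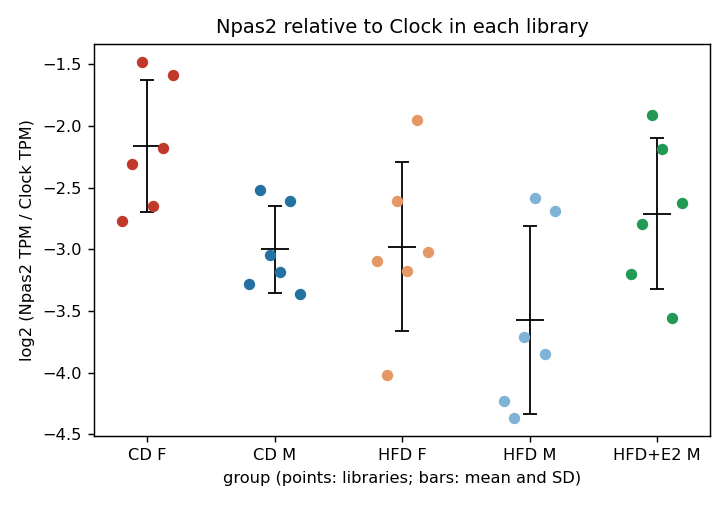
Log2 of the ratio of Npas2 TPM to Clock TPM (y axis) in each library (points) by group, with mean and SD (bars, n = 6). All libraries lay below 0, with CD F the highest group (mean -2.16) and HFD M the lowest (mean -3.57).

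The variation between animals of 1 group was shared by Arntl and Npas2, and a share of Clock in it was not detected over the pooled groups. After group means were removed from log2 CPM, Arntl and Npas2 correlated over the 30 libraries with Pearson's r = 0.81 and Spearman's rho = 0.84 (permutation within groups, p = 1e-05 for each, the smallest the 100000 permutations can give, and 3e-05 adjusted over the 3 pairs). Without the 2 libraries farthest from the median of Arntl, r was 0.81. Within single groups of 6 the r was 0.76 in CD F, 0.65 in CD M, 0.86 in HFD F, 0.86 in HFD M and 0.97 in HFD+E2 M. Arntl and Clock had r = -0.14 and rho = -0.14 (permutation p = 0.504 and 0.496, and the same when adjusted), and r was -0.16 without the 2 farthest libraries. The sign differed between groups, with r of 0.31 in CD F, 0.61 in CD M, -0.18 in HFD F, -0.33 in HFD M and -0.40 in HFD+E2 M. Clock and Npas2 had r = -0.32 and rho = -0.27 (permutation p = 0.131 and 0.182, adjusted 0.196 and 0.273), and r was -0.28 without the 2 farthest. By group their r was -0.27 in CD F, 0.47 in CD M, -0.40 in HFD F, -0.67 in HFD M and -0.19 in HFD+E2 M.

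**Figure D4:**
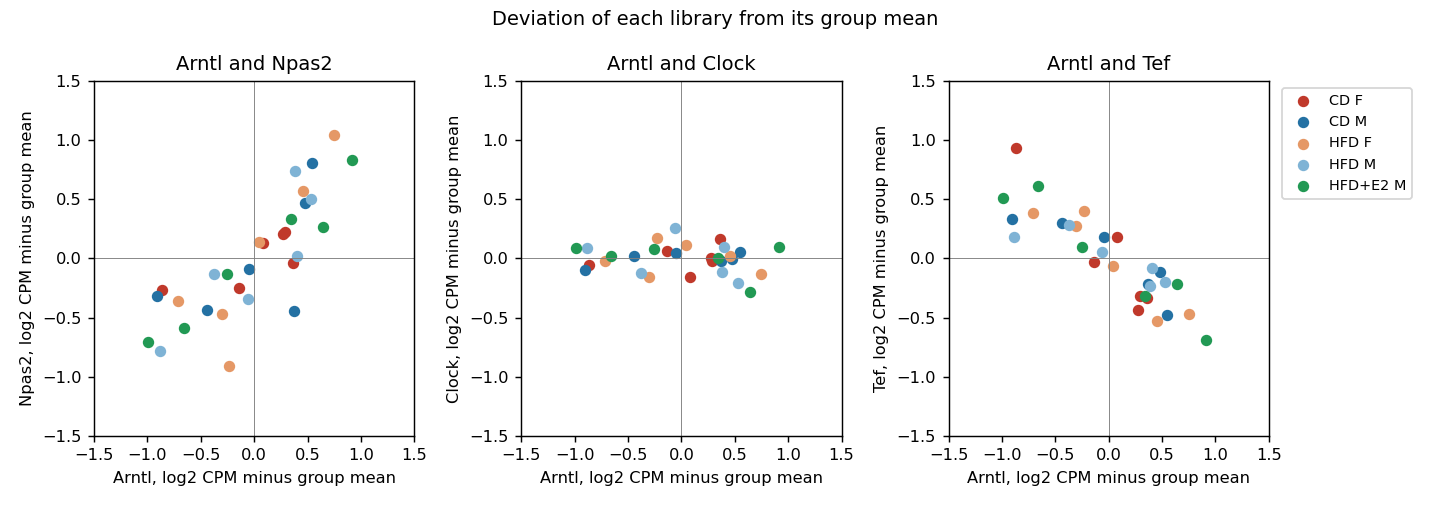
Deviation of each library's log2 CPM from its group mean, for Arntl (x axis) against Npas2, Clock and Tef (y axes), colored by group, 30 libraries. Points rise with Arntl for Npas2 (r = 0.81) and fall for Tef (r = -0.89). For Clock no trend was detected over all libraries (r = -0.14), and the sign differed between groups.

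Smooth muscle moved with the 2 variable activators within groups. The smooth muscle score, the mean log2 CPM of its markers, correlated with Arntl at r = 0.51 and rho = 0.53 (permutation p = 0.00711 and 0.00544, adjusted over 9 relations 0.0320 and 0.0245), with Npas2 at r = 0.56 and rho = 0.55 (p = 0.00458 and 0.00528, adjusted 0.0320 and 0.0245), and with Clock at r = -0.48 and rho = -0.49 (p = 0.0155 and 0.0127, adjusted 0.0464 and 0.0380). Without the 2 farthest libraries r was 0.49, 0.50 and -0.48. Squamous and B cell scores gave r between -0.262 and 0.105 with the 3 genes, and the lowest adjusted permutation p was 0.477. The sign within groups was opposite to that between CD F and CD M, where the group with less smooth muscle RNA had more Arntl and Npas2.

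The rest of the clock was described by lists of 42 genes, 41 of which were tested in the 5 comparisons. Under CD, 5 of the 41 passed by the adjusted p in CD F against CD M and 10 by the study's threshold, 2 higher in females and 8 lower, beside 2.92% and 9.15% of all genes tested. The 5 were Ciart, which encodes a repressor of the ARNTL dimer (log2 fold change -2.61 ± 0.32, edgeR adjusted p = 0.000415), Nr1d2, a Rev-erb repressor (-1.03 ± 0.22, adjusted p = 0.0217), Tef and Hlf, D-box activators (-1.25 ± 0.22 and -0.998 ± 0.23, adjusted p = 0.00686 and 0.0255), and Nfil3, which represses at the same D-boxes (1.64 ± 0.27, adjusted p = 0.00383). Nfil3 and the repressor Cry1 (0.73 ± 0.25, edgeR adjusted p = 0.150) were the 2 higher in females, as were Arntl and Npas2. The median log2 fold change of the 8 Period, Cryptochrome and related repressor genes was -0.29 and that of the 2 Rev-erb genes -1.05, beside 0.01 over all genes tested.

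Between the sexes under HFD, 2 of the 41 genes passed the study's threshold, beside 3.09% of all genes tested, the same repressor Ciart (log2 fold change -0.78 ± 0.32) and Tef (-0.44 ± 0.16), both lower in females, and none passed by the edgeR adjusted p (0.872 for both). In HFD F against CD F, 11 of the 41 passed the study's threshold (3.67% of all genes tested did), 9 higher and 2 lower, and Ciart also passed by the adjusted p (2.67 ± 0.39, edgeR adjusted p = 0.0332). The 2 lower in HFD F were Cry1 (-0.91 ± 0.26) and Nfil3 (-0.98 ± 0.29). Among those higher were Tef (1.38 ± 0.24, edgeR adjusted p = 0.152), Per3 (1.01 ± 0.25, adjusted p = 0.412) and Nr1d2 (0.95 ± 0.22, adjusted p = 0.410). In the females on HFD, lower Arntl and Npas2 thus came with higher RNA of several genes that the ARNTL dimer is known to switch on. The Cryptochrome gene Cry1, also such a gene, went the other way, as did Nfil3.

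In HFD M against CD M, 8 of the 41 passed the study's threshold (2.90% of all genes tested did) and all 8 were higher in HFD M. They included Tef (log2 fold change 0.57 ± 0.13), Ciart (0.84 ± 0.26) and Per3 (0.43 ± 0.14). In HFD+E2 M against HFD M, 3 of the 41 passed the study's threshold, a share near the 5.87% of all genes tested. All 3 were lower with E2, namely Ciart (-1.11 ± 0.43), the cell cycle kinase Wee1 (-0.51 ± 0.18) and Tef (-0.47 ± 0.19). Per3 was at -0.39 ± 0.14, just short of the fold. None passed by the adjusted p in either comparison of males (Tef 0.389 and 0.461, edgeR adjusted p). The median absolute log2 fold change of the 41 genes was 0.145 in CD F against CD M and 0.175 in HFD F against HFD M, beside 0.135 and 0.129 over all genes tested. It was 0.101 in HFD F against CD F and 0.0909 in HFD M against CD M, beside 0.101 and 0.125. In HFD+E2 M against HFD M it was 0.175 beside 0.165. The median listed gene thus moved about as much as genes in general, more between the sexes under HFD and less with HFD in males.

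**Figure D5:**
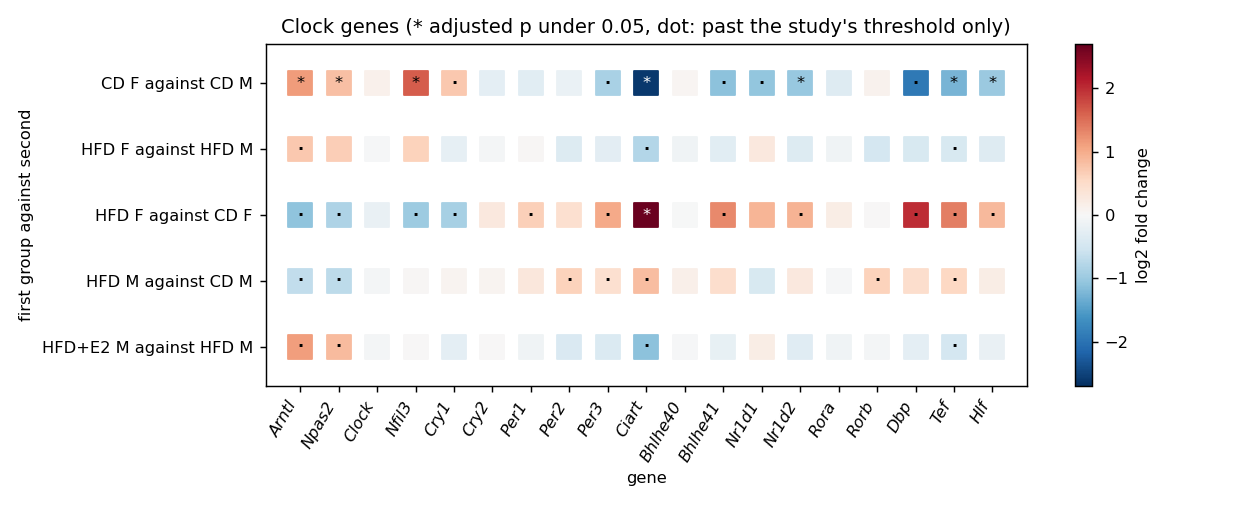
Log2 fold change (color, first group minus second) of the 3 activators and 16 other clock genes (x axis) in the 5 comparisons (y axis). Asterisks mark an adjusted p under 0.05 and dots the study's threshold only. Arntl and Npas2 have the color opposite to Ciart, Per3, Nr1d2 and Tef in each row.

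No paralog of the activators passed by the adjusted p in the 5 comparisons. Of 13 bHLH-PAS paralogs, 7 were tested in CD F against CD M. The study's threshold was passed by 2 of the 7, both lower in females, beside 9.15% of all genes tested. These were Hif1a, the hypoxia factor (log2 fold change -0.44 ± 0.12, edgeR adjusted p = 0.0584), and Ahrr, the repressor of the aryl hydrocarbon receptor (-1.17 ± 0.37, adjusted p = 0.106). In HFD M against CD M, 1 of 7 passed the study's threshold, beside 2.90% of all genes tested. This was Ahrr, which was lower in HFD M (-0.77 ± 0.36, edgeR adjusted p = 0.823), as Arntl and Npas2 were. In the other 3 comparisons none of 7 passed either threshold. Of the 9 kinases and ubiquitin ligases and the 11 cofactors tested, none passed either threshold in any of the 5 comparisons. Over these comparisons 2.90% to 9.15% of all genes tested passed the study's threshold.

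Across animals, several output and repressor genes of the clock, and some of its kinases and cofactors, were lower where Arntl and Npas2 were higher. Group-centred log2 CPM of each activator was related to that of the 41 clock genes, 123 relations in all, with permutation within groups and adjustment over all of them. By Pearson's r, 11 genes passed for Arntl, all negative, 13 for Npas2, 1 positive and 12 negative, and 7 for Clock, all positive. The share of all genes that would pass was not tested. Among 14905 genes ranked from the lowest such r, Tef stood at place 1 and Bhlhe41 at place 76 for Arntl. For Npas2, Tef stood at place 3, Per3 at place 434 and Bhlhe41 at place 1621, so many unlisted genes had an r as low. Ranked from the highest r with Clock, the unlisted gene Etf1 stood at place 40 with r = 0.79, above every one of the 41 genes. The negative genes included, for both Arntl and Npas2, the AMPK subunits Prkaa1 and Prkaa2 (r = -0.55 and -0.59 with Arntl, adjusted permutation p = 0.0265 and 0.0139, and r = -0.59 and -0.57 with Npas2, adjusted p = 0.0144 and 0.0201) and the corepressor Hdac3 (r = -0.58 and -0.67, adjusted permutation p = 0.0123 and 0.00307), and for Npas2 also Fbxw11 (r = -0.53, adjusted permutation p = 0.0194) and Kat2b (r = -0.59, adjusted permutation p = 0.0139). These 8 relations also passed by rho (adjusted permutation p of 0.00355 to 0.0383), and without the 2 farthest libraries their r lay between -0.65 and -0.53. With Clock, Prkaa1, Prkaa2, Hdac3 and Kat2b passed with the opposite sign (r = 0.60, 0.50, 0.54 and 0.67, adjusted permutation p = 0.0123, 0.0158, 0.0376 and 0.00512), Hdac3 not by rho, and Fbxw11 did not pass (r = 0.29). The smooth muscle score also had opposite signs with Clock and with the other 2 activators. Its part in these relations was not tested. Arntl was most closely related to Tef (r = -0.89, rho = -0.87, permutation p = 1e-05 for each, adjusted 0.000246 and 0.00041, r = -0.89 without the 2 farthest libraries), with a negative r in all 5 groups, between -0.87 and -0.95. For Npas2 and Tef r was -0.77 and rho -0.82 (permutation p = 1e-05 for each, adjusted 0.000246 and 0.00041), and r was -0.73 without the 2 farthest.

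Among the repressors, Ciart gave r = -0.81 and rho = -0.79 with Arntl (permutation p = 1e-05 for each, adjusted 0.000246 and 0.00041, r = -0.81 without the 2 farthest). Per3 gave r = -0.73 and rho = -0.71 with Arntl (permutation p = 1e-05 and 8e-05, adjusted 0.000246 and 0.00197, r = -0.68 without the 2 farthest), and Nr1d2 gave r = -0.73 and rho = -0.72 (p = 1e-05 and 6e-05, adjusted 0.000246 and 0.00184, r = -0.70 without the 2 farthest). Nr1d1, the other Rev-erb gene, did not follow, with r = -0.13 and rho = 0.03 with Arntl (permutation p = 0.464 and 0.853, adjusted 0.613 and 0.920, r = -0.13 without the 2 farthest). For Clock the highest r among the listed clock genes was with Nampt, the NAD salvage enzyme (r = 0.67, rho = 0.48, permutation p = 0.00031 and 0.0115, adjusted 0.00347 and 0.0442, r = 0.52 without the 2 farthest). The highest rho among them was with Kat2b, an acetyltransferase (r = 0.67, rho = 0.66, permutation p = 0.0005 and 0.00054, adjusted 0.00512 and 0.00474, r = 0.66 without the 2 farthest).

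The genes whose pattern over all 30 libraries was most like each activator were ranked by Spearman's rho of log2 CPM among genes with a mean of at least 1 CPM, as a description with no test, since all points share the same libraries. Npas2 and Arntl were each other's closest gene (rho = 0.89). The next 4 for both were St5, Leo1, Gm3617 and Lifr, with rho of 0.85, 0.78, 0.76 and 0.76 to Arntl and 0.80, 0.75, 0.75 and 0.74 to Npas2, and Gm3617 is the pseudogene that lies within Npas2. The 5 least like them were also the same, Tef, Ciart, Per3, Nr1d2 and Bhlhe41, with rho of -0.93, -0.93, -0.88, -0.88 and -0.83 to Arntl and -0.93, -0.87, -0.87, -0.86 and -0.79 to Npas2. Clock shared none of these. Its closest genes were Ptcd3 (rho = 0.84), Tmem87a (0.82), Etf1 (0.82), 4932438A13Rik (0.81) and Cpd (0.81), and the least like it were Slc6a7 (-0.79), Ephb6 (-0.78), 9530082P21Rik (-0.76), Agrn (-0.76) and Mov10 (-0.74). In the list of genes ordered by likeness to Arntl, Clock stood at place 2354, and in the list for Npas2 at place 4222.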

How the data were processed

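RNA was taken from colon tissue, depleted of ribosomal RNA, made into stranded libraries and sequenced as paired reads of 51 bases. The authors mapped the reads to GRCm38 with STAR, counted them per gene with featureCounts and estimated TPM with StringTie, and the submitters' processing notes also name Trim Galore and bcl2fastq 2.19.1.403. The deposited table holds raw counts per gene, and the deposited abundance files hold TPM per gene and library. Groups were taken from the labels, 6 libraries each, and p-values measure the spread between these libraries.

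Counts were tested with edgeR 4.0.16 (filterByExpr, TMM scaling, robust quasi-likelihood test) in each pair of groups, with Benjamini-Hochberg adjustment over all genes tested and a threshold of 0.05. Log2 CPM was computed with a prior count of 2 over all 30 libraries. Exact permutation tests were two-sided, and relations across libraries were tested with 100000 permutations within groups. The edgeR step was tested on simulated data. Alternatives were DESeq2 1.42.0 and limma 3.58.1 on log2(TPM + 0.1) or log2(TPM + 1), other filters and scalings, marker scores as covariates, a replicate block and each library left out in turn. The counts per kilobase of merged exon were an alternative chosen after seeing the data. All 30 libraries had 8667177 counts or more, 26.1% to 38.0% of them mitochondrial, and the member with the fewest counts in a library was Npas2 with 74.

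The members, gene lists and marker lists were chosen with earlier results of these data known. By rule, the text names the members everywhere, every listed clock gene past the adjusted threshold, otherwise the lowest p of a list, and the 5 genes most and least like each member, and the further clock genes named were chosen after their values were seen. The figure of clock genes plots genes of the Period, Cryptochrome, Rev-erb and ROR lists and the D-box factor genes. One listed gene is not reported here. Sequences come from RefSeq (GRCm38.p6). Proteins were not used here.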

Additional observations from a re-analysis of the deposited data

Results flagged for a closer look

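Of the 15 sets of 6 libraries, 1 for each member and group, a single one had a library far from the others, about what chance gives when 1 in 20 sets is flagged. Clock in HFD+E2 M replicate 4 lay below the other 5 libraries in log2 CPM, with a gap to the nearest of 0.747 of the whole range of the group. Its level was 44.8 TPM, and replicate 2 of the same group was lower on the TPM scale, at 42.3 TPM, so the position of replicate 4 held for CPM and not for TPM. Over all libraries left out in turn, this one included, the log2 fold change of Clock in HFD+E2 M against HFD M ran from -0.08 to 0.02, on both sides of 0.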

How the results depend on the processing

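Arntl and Npas2 kept their direction in the 5 comparisons under the 12 alternatives and 12 fits without a library that were run for each. In CD F against CD M the adjusted p passed 0.05 again under 5 of 12 settings for Arntl and 4 of 12 for Npas2, apart from the fits with a library left out. The call was lost for Arntl and Npas2 with no filter on low counts (log2 fold change 1.15 and 0.789), with the smooth muscle score (1.75 and 1.26) or the B cell score (1.28 and 0.912) as a covariate, with log2(TPM + 0.1) (1.06 and 0.783) and with log2(TPM + 1), filtered or not (0.992 and 0.718), for Npas2 also with all 30 libraries in one fit (0.802) and with the squamous score (0.729), and the cause was not tested. Leaving out each library gave 1.01 to 1.29 for Arntl and 0.708 to 1.01 for Npas2. DESeq2 called Arntl in HFD F against CD F (-1.10) and in HFD+E2 M against HFD M (1.14). The log2 fold change of Clock changed sign with TPM in CD F against CD M (-0.0456 with 0.1 added, -0.0447 with 1 added) and in HFD M against CD M (0.0452 and 0.0450), with the squamous score in HFD F against HFD M (0.0214), and with single libraries left out in HFD F against HFD M (-0.0608 to 0.0355) and HFD+E2 M against HFD M (-0.0754 to 0.0153). Npas2 changed sign in HFD+E2 M against CD M with the B cell score (-0.00367) or a library left out (-0.0550 to 0.364) and in the interaction (-0.409 to 0.0402). These values of Clock and Npas2 were not called in any fit. The Npas2 to Clock ratio in HFD F against CD F ran from -1.02 to -0.606 over the libraries left out. Pearson's r of Arntl with Clock was 0.220 with group means kept and 0.0262 on log2(TPM + 0.1), and that of Clock with Npas2 was 0.128 with group means kept, and the values with group means kept were not tested. Of the 5 genes most like Arntl by rho, 2 were also among the 5 by Pearson's r with group means removed, and 4 of the 5 least like it. The number of genes called over the whole table moved far more than the members did, from 435 to between 39 and 941 over the alternatives in CD F against CD M, from 15 to between 1 and 50 in HFD F against HFD M, from 3 to between 0 and 224 in HFD F against CD F, from 0 to at most 26 in HFD M against CD M, from 1 to at most 54 in HFD+E2 M against HFD M, from 32 to between 0 and 246 in HFD+E2 M against CD M and from 0 to at most 3 in the interaction. The highest count was DESeq2's except in CD F against CD M, where DESeq2 called 770.

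The replicate numbers were not taken as pairs, since the labels name no shared litter, day or batch. In no comparison did all 6 same-numbered pairs correlate above 0.1 in their deviations from group means. At most 5 of 6 did, in CD F against CD M, where the median r was 0.27. Within each group the replicate numbers rise with the sample numbers, and whether this order marks shared handling was not tested. With the replicate number as a block, edgeR called 941 genes in place of 435 in CD F against CD M, the log2 fold change of Arntl was 1.18 (adjusted p = 0.106) and that of Npas2 0.859 (adjusted p = 0.0113), and Arntl was called in HFD F against CD F (-1.11, adjusted p = 0.00247) and in HFD+E2 M against HFD M (1.06, adjusted p = 0.0178). Depth was not varied, and its part in the adjusted p was not tested.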
